A study of Mus musculus with 12 samples.

Results

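miR-192 and miR-194 are the microRNAs (miRNAs) that enterocytes, the absorptive cells of the intestinal epithelium, express at high level. They were taken by probe name (mmu-miR-192 and mmu-miR-194) from the deposited table, where each has 1 probe, so the members are 2 of 599 probes. Both were measured in 12 libraries from the ileum of male NOD/ShiLtJ mice at postnatal day 23. NOD is an inbred strain that develops autoimmune diabetes without any introduced allele. By the labels, 4 libraries are controls, 4 come from mice labelled 1PAT antibiotics and 4 from mice given cecal material, called cecal transfer here. Dams with their litters were randomised. The labels name neither the dam of any library nor the agent and time of dosing, and they do not say whether mice given cecal material had first received the antibiotic. All 12 libraries carry 1 batch label. Replicate numbers used here follow the order of deposit and only name a library. The p-values measure the spread between libraries, some of which may come from 1 litter.

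A miRNA is a short RNA that guides Argonaute proteins to messenger RNAs, mainly through its seed, bases 2 to 8 from the 5′ end. Most targets are then translated less or degraded. miR-192 and miR-194 are made from shared primary transcripts, and the hepatocyte nuclear factors that set intestinal and liver cell identity are known to activate them. Both are known in cultured cells as brakes on growth and migration.

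The mature sequences below show which molecules carry the results. They are the RefSeq entries of mouse build GRCm38.p6, with the seed in capitals. The probe names give no arm, and the 5p strand, the major product, is taken here as the strand measured.
miR-192-5p: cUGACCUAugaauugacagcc
miR-194-5p: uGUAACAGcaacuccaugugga
miR-215-5p: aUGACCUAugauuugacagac

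The seeds of miR-192 (UGACCUA) and miR-194 (GUAACAG) differ, so the pair is linked by genomic position and not by a common target code. miR-215 shares the seed of miR-192 and was the only other entry in the RefSeq table with either seed. It is identical to miR-192 at 18 of 21 positions, with the substitutions C1A, A12U and C20A counted from the 5′ end (miR-192 base first). miR-215 has no probe of its own in the deposited table and so was not measured, and how far the miR-192 probe also reads it is not given in the sources used.

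The hairpin genes lie in 2 pairs, all on the plus strand. On chromosome 19, Mir194-2 (chr19:6264643-6264728) is followed by Mir192 (chr19:6264844-6264932), with 115 bases between the hairpins and a span of 290 bases. On chromosome 1, Mir194-1 (chr1:185313319-185313385) is followed by Mir215 (chr1:185313581-185313692), with 195 bases between them. The hairpins of both miR-194 genes and of Mir192 are shown with the 5p strand in capitals, because they show what 1 probe can tell apart.
Mir194-1: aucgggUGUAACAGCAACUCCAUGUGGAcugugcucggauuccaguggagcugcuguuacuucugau
Mir194-2: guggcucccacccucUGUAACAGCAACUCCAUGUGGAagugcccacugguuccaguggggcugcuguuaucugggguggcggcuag
Mir192: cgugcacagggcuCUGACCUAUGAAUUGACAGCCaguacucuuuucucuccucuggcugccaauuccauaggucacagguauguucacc

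The 22 bases of miR-194-5p are the same in both of its hairpins. The miR-194 probe therefore cannot tell the output of chromosomes 1 and 19 apart, whereas the gene of miR-192 lies on chromosome 19 alone. How much each miR-194 gene gave was not measured.

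The assay was the NanoString nCounter miRNA panel, which counts tagged miRNAs without amplification. Values are normalised signal, which proved to be whole counts multiplied by 1 factor per library. The recovered total was 120235 to 393551 counts per library. Depth separated the groups without overlap, from 120235 to 148297 counts after antibiotic, over 169844 to 274302 in controls, to 280114 to 393551 after cecal transfer. The members had high counts in every library. miR-192 had 2714 to 6796 recovered counts and miR-194 had 5407 to 19872. Counting error alone was thus at most 1.92% for miR-192 and 1.36% for miR-194. The design text speaks of intestinal epithelial cells and the labels of ileum. All 12 epithelial miRNAs of the marker list that the table holds exceeded 32, the signal minimum set for testing, in every library. So did the smooth muscle miRNAs miR-143 and miR-145, and miR-145 was the most abundant miRNA (mean 24186). A signal of 32 was 16.6 counts in the shallowest library and 54.2 in the deepest.

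miR-194 fell in cecal transfer libraries. Its signal was 16796, 11584, 13033 and 7936 in control replicates 1 to 4. It was 9404, 9147, 11282 and 11777 in the antibiotic libraries. It was 5555, 7826, 6371 and 6161 in the cecal transfer libraries. All cecal transfer values lay below all values of the other groups, although the highest of them, 7826, lay close to control replicate 4 at 7936. The antibiotic values lay inside the control range.

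The group means of miR-194 were 12337 ± 3666 (SD, n = 4) for controls, 10403 ± 1322 for antibiotic and 6478 ± 963 for cecal transfer. The cecal transfer mean was 52.5% of the control mean. In the order control, antibiotic, cecal transfer, the first neighbours did not differ beyond their spread and the second did. Ranges without overlap, with cecal transfer lower, were found for 12.8% of tested probes against control and 13.7% against antibiotic. By share of the mouse miRNA signal, miR-194 held 3.44% to 7.26% for controls, 3.93% to 5.05% for antibiotic and 2.41% to 3.38% for cecal transfer. It ranked between 3 and 6 among mouse probes in control libraries, at 3 or 4 in antibiotic and between 6 and 8 in cecal transfer libraries.

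miR-192 showed smaller differences. Its signal was 5744, 4839, 5691 and 4131 in control replicates 1 to 4. It was 4720, 4718, 5381 and 5054 in the antibiotic libraries. It was 3969, 4577, 4119 and 3894 in the cecal transfer libraries. All cecal transfer values lay below all antibiotic values, as they did for 13.7% of tested probes. Of the 4 cecal transfer values 3 lay below all control values, control replicate 4 being again the lowest control. The means were 5101 ± 768 (SD, n = 4), 4968 ± 317 and 4140 ± 306 in control, antibiotic and cecal transfer, the last being 81.1% of control.

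**Figure D1:**
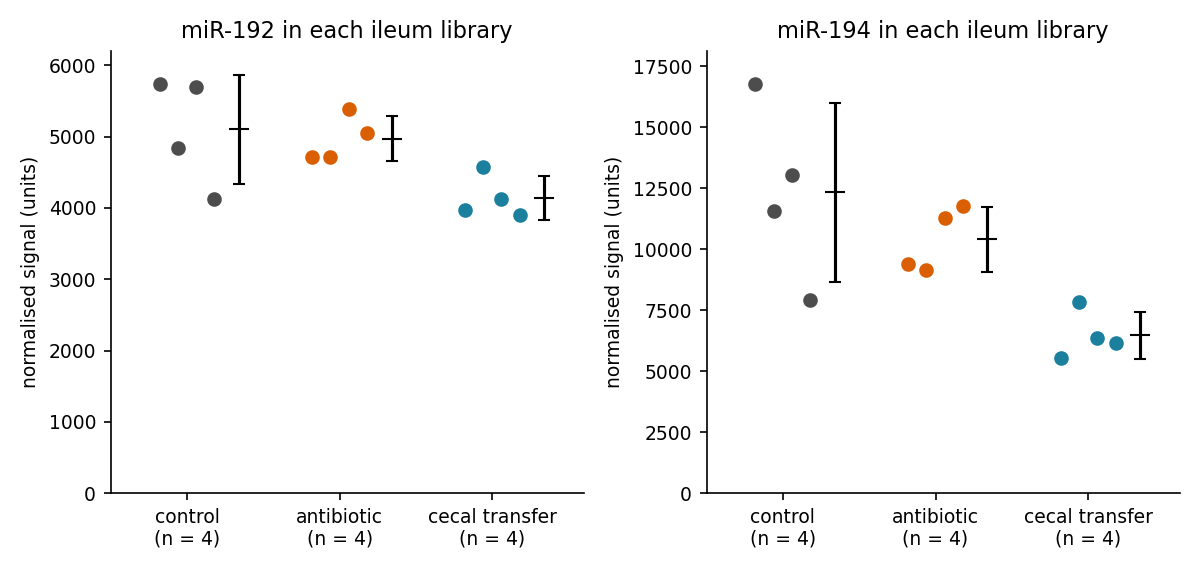
Normalised signal (units, y axis from 0) of miR-192 (left) and miR-194 (right) in each of 12 ileum libraries by group; points are libraries and bars show the mean and SD of 4 libraries. For miR-194 the 4 cecal transfer libraries, at 5555 to 7826, sit below every other library.

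Control libraries spread more than the others for both members. The coefficient of variation of miR-194 was 29.7% for controls, 12.7% for antibiotic and 14.9% for cecal transfer, and the highest control was 2.12 times the lowest. For miR-192 it was 15.1%, 6.38% and 7.39%. This spread was many times the counting error. No library stood far from its group by Dixon's criterion in any of the 15 sets of 4 values examined, which were the 2 members and 3 ratios in 3 groups.

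Against controls, neither member passed after antibiotic. The log2 difference of miR-192 was −0.03 (SE 0.10, 95% interval −0.24 to 0.18, limma adjusted p = 0.955). That of miR-194 was −0.20 (SE 0.18, interval −0.59 to 0.18, adjusted p = 0.602). These intervals allow a fold between 0.848 and 1.14 for miR-192 and between 0.665 and 1.13 for miR-194. Of the 226 probes tested, 0 were called in this comparison (0%). At an unadjusted p under 0.05 there were 34, with edgeR 0 calls and with DESeq2 3.

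The next comparison set cecal transfer against controls. miR-194 was 1.85-fold lower (log2 −0.89, SE 0.18, 95% interval −1.27 to −0.51, limma adjusted p = 0.00183). It had the eighth lowest log2 difference of the 226 tested probes. miR-192 was 1.22-fold lower (log2 −0.29, SE 0.10, interval −0.50 to −0.08, adjusted p = 0.0369). In this comparison 11.9% of tested probes were called lower and 30.1% were called in either direction, and the median log2 difference over all tested probes was 0.05.

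The calls of the members differed in how firm they were. miR-194 passed in all 12 other settings and in all 12 fits with a library left out, between −1.18 and −0.58. miR-192 kept its sign in all of them but lost its call in 5 of 12 settings and in 6 of 12 fits. The settings were quantile normalisation (adjusted p = 0.0773), no filter (0.053), no mean trend (0.0738), only the groups compared (0.0735) and log2 depth as a covariate (0.278). Its log2 difference was −0.23 without control replicate 1 (adjusted p = 0.12), −0.31 without control replicate 2 (0.0551) and −0.23 without control replicate 3 (0.104). It was −0.27 without transfer replicate 1 (0.0889), −0.29 without transfer replicate 3 (0.0796) and −0.26 without transfer replicate 4 (0.102).

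The last comparison set cecal transfer against antibiotic. miR-194 was 1.61-fold lower in cecal transfer (log2 −0.69, SE 0.18, 95% interval −1.07 to −0.30, limma adjusted p = 0.0108), the ninth lowest difference of 226. miR-192 had a log2 difference of −0.26 (SE 0.10, interval −0.47 to −0.05, adjusted p = 0.0528) and did not pass. Here 12.8% of tested probes were called lower and 32.7% in either direction. The miR-192 value lay at the threshold, since 8 of 12 other settings and 4 of 12 fits with a library left out called it lower. With log2 depth in the model miR-194 had −1.27 but SE 0.49 (adjusted p = 0.288), so its call was lost while the difference was larger. In that setting 0 of 226 probes were called in this comparison, against 74 in the main fit. For miR-194 in cecal transfer against control the same covariate gave −1.18 (SE 0.28, adjusted p = 0.0214). Because the depths of the groups do not overlap, depth and group cannot be fully told apart. The last 2 comparisons share the cecal transfer libraries and are not independent of each other.

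Among abundant miRNAs miR-194 differed by the most downward. Of the 20 miRNAs of highest mean signal, a group chosen after the values were seen, 7 were called lower in cecal transfer than in control and 5 than in antibiotic, where 11.9% and 12.8% of all tested probes were. miR-194 had the lowest log2 difference in both cecal transfer comparisons. The next lowest were the probe for miR-20a and miR-20b (−0.39) against control and miR-200c (−0.48) against antibiotic.

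The members varied together from library to library. Over 12 libraries their log2 signals had Pearson r = 0.95 and Spearman rho = 0.97 (permutation p = 1e-05 for each, the smallest that 100000 permutations can give, and 2e-05 after adjustment over 2 relations). Without the 2 libraries farthest from the median of miR-192, r was 0.93. As the groups differ, the relation was also taken on deviations from the group means, where r was 0.93 and rho 0.87 (permutation within groups, p = 0.00124 and 0.00254, the same after adjustment), and 0.84 without the 2 farthest. Each group has too few libraries for a correlation of its own. All points share the scaling of their library.

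For each member, the other member was the most similar of the 225 other tested probes, on the log2 signal and on deviations from the group means. The next most like miR-192 over 12 libraries were miR-29b (r = 0.95), which targets collagen messages, miR-2132 (0.92), the cell cycle miRNA miR-16 (0.85) and miR-103 (0.84). The next most like miR-194 were miR-2132 (0.93), miR-29b (0.92), miR-141 (0.92), of the epithelial miR-200 family, and miR-16 (0.85). Of these, miR-29b (log2 −0.28), miR-141 (−0.49) and miR-2132 (−0.57) were lower in cecal transfer than in control past the threshold. miR-16 (−0.17) and miR-103 (−0.14) did not pass. As these probes were chosen for likeness over the same libraries, their direction is a description. The call of miR-29b was lost with quantile normalisation (adjusted p = 0.132). miR-16 was called with TMM factors (−0.22, adjusted p = 0.0234) and turned sign with quantile normalisation (0.07, adjusted p = 0.475).

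Within groups, the nearest to miR-192 after miR-194 were miR-802 (r = 0.91), miR-29b (0.90), miR-151-5p (0.88) and miR-202-3p (0.87). The nearest to miR-194 were miR-205 (0.89), miR-29b (0.87), miR-200a (0.87) and miR-2132 (0.85). miR-802 and miR-200a belong to the epithelial list. Over all 12 libraries, group differences included, the most opposed to miR-192 were the smooth muscle miRNA miR-143 (r = −0.92), miR-181a (−0.89), of a family known in lymphocytes, and miR-872 (−0.88). Most opposed to miR-194 were miR-130a (−0.92), miR-181a (−0.92) and miR-125a-5p (−0.91). The log2 differences of these 5 in cecal transfer against control ran from 0.18 (miR-143) to 0.98 (miR-130a), a direction that their choice over the same libraries largely fixed. These likenesses are descriptions over 12 libraries. The 100 most abundant probes summed to 220014 to 222565 units in every library. With a total so nearly fixed, a rise of abundant probes lowers the signal of others, so negative correlations are partly built in.

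miR-194 varied more widely than miR-192. The SD of its log2 signal was 2.49 times that of miR-192 over all libraries and 2.0 times on deviations from the group means. The ratio of miR-194 to miR-192 signal within a library, which no scaling of the library can change, followed the same order. It was 2.92, 2.39, 2.29 and 1.92 in control replicates 1 to 4. It was 1.99, 1.94, 2.10 and 2.33 in antibiotic libraries, and 1.40, 1.71, 1.55 and 1.58 in cecal transfer libraries. All 4 cecal transfer ratios lay below all ratios of the other groups, while control and antibiotic overlapped. As probes can differ in efficiency, the ratio is read between libraries and not as the relative amount of the 2 miRNAs.

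On the log2 scale the ratio in cecal transfer differed by −0.60 from control and by −0.42 from antibiotic. The exact two-sided permutation p was 0.0286 for each, the smallest that 4 libraries against 4 can give, and 0.0643 after adjustment over the 9 ratio tests, which does not pass. For a ratio at this smallest p, the adjusted p depends on how many of the 9 tests reach it. It does not reflect the size of the difference. In antibiotic against control it differed by −0.18 (exact p = 0.314, adjusted p = 0.441).

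**Figure D2:**
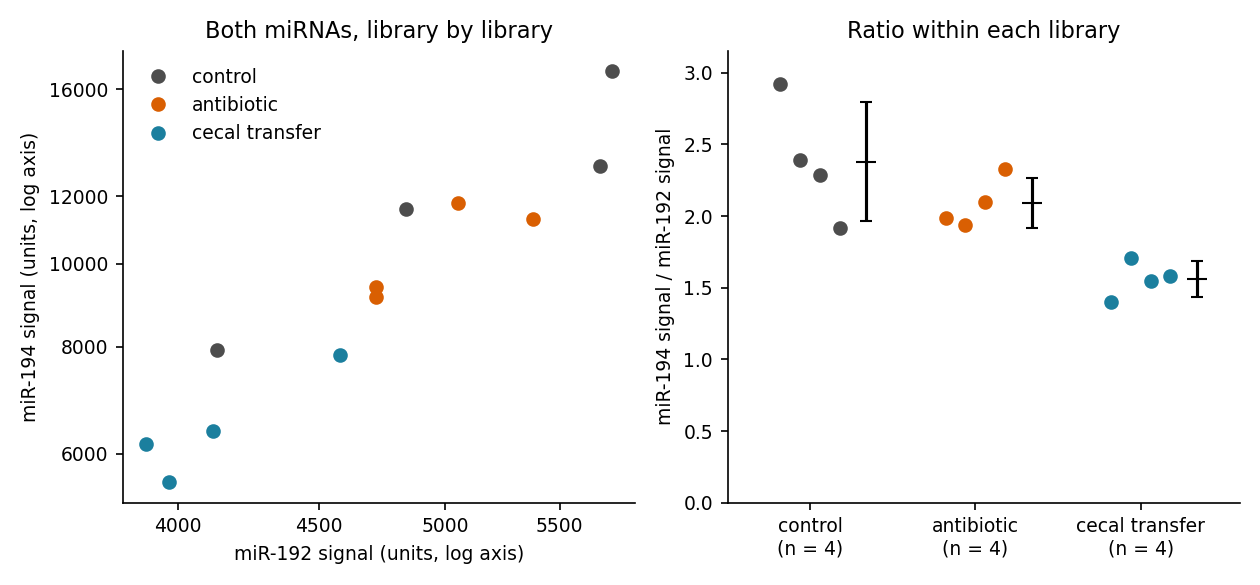
Left, miR-194 against miR-192 signal in each library, both on log axes, coloured by group; right, the ratio of the 2 signals in each library (y axis from 0), with the mean and SD of 4 libraries. Libraries with more miR-192 had more miR-194 (r = 0.95), and the ratio is 1.40 to 1.71 in cecal transfer against 1.92 to 2.92 in control.

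The same measure was taken against the miR-200 family, 5 miRNAs (miR-200a, miR-200b, miR-200c, miR-141 and miR-429) that maintain epithelial identity by repressing the Zeb factors. The log2 signal of miR-194 minus the mean of the 5 was 1.42 to 2.28 for controls, 1.55 to 1.75 for antibiotic and 1.02 to 1.39 for cecal transfer. Cecal transfer differed by −0.66 from control and −0.46 from antibiotic, without overlap (exact permutation p = 0.0286 and adjusted p = 0.0643 for each). For miR-192 the differences were −0.06 and −0.03 (exact p = 0.343 and 0.457, adjusted p = 0.441 and 0.514). The miR-192 ranges, 0.48 to 0.73 for controls, 0.53 to 0.68 for antibiotic and 0.53 to 0.62 for cecal transfer, overlapped throughout, with an SD of 0.12, 0.06 and 0.04.

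The other epithelial miRNAs did not all move with the members. The list holds 13 names, of which 12, all but miR-215, had a probe and all 12 were tested, 10 besides the members. In cecal transfer against control 3 of these 10 fell, beside 11.9% of all tested probes, namely miR-141 (log2 −0.49, adjusted p = 0.000445), miR-200c (−0.31, 0.0109) and miR-429 (−0.28, 0.00406). miR-7a, of secretory and endocrine cells, rose (0.36, adjusted p = 0.0186), as did 18.1% of tested probes. The 6 that did not pass were miR-200a (−0.03), miR-200b (−0.02), the endocrine miR-375 (−0.11), miR-31 (0.07), miR-203 (−0.18) and miR-802 (−0.20). The median of the 10 was −0.14, against 0.05 over all tested probes. Quantile normalisation ended the calls of miR-200c (adjusted p = 0.0785), miR-429 (0.0701) and miR-7a (0.132), and median centring that of miR-7a (0.104), with no sign turned among these.

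In cecal transfer against antibiotic the same 3 of 10 fell, by −0.28 (miR-141), −0.48 (miR-200c) and −0.35 (miR-429), and 0 rose, with a median of −0.07, while 12.8% of tested probes fell and 19.9% rose. In antibiotic against control none of the 10 passed, with values from −0.22 (miR-802) to 0.32 (miR-7a). miR-203 had the widest interval of the list, −0.78 to 0.42 against control, so a change as large as that of miR-192 in it was not detectable.

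**Figure D3:**
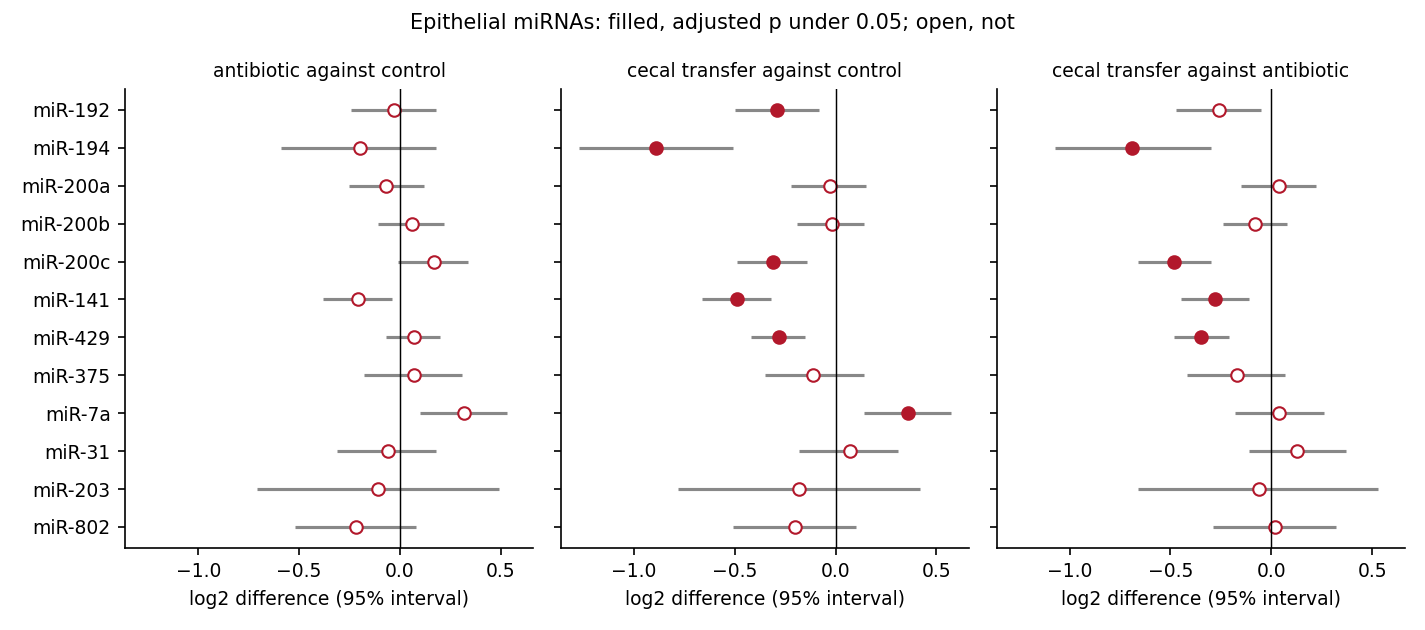
Log2 difference with its 95% interval (x axis) for the 12 tested epithelial miRNAs (rows) in the 3 comparisons; filled points have a limma adjusted p under 0.05. miR-194 has the lowest value in both cecal transfer panels, −0.89 and −0.69, and 0 points are filled for antibiotic against control.

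The next values describe markers of the tissue's other cell types beside the members. In bulk RNA, fewer cells of a type and less of a miRNA per cell cannot be told apart. Together miR-192 and miR-194 made up 7.50% ± 1.87 (SD, n = 4) of the mouse miRNA signal for controls, 6.62% ± 0.698 for antibiotic and 4.58% ± 0.537 for cecal transfer. The summed signal of the other 10 epithelial miRNAs was 20943 to 24496 for controls, 22041 to 24909 for antibiotic and 18837 to 22154 for cecal transfer.

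The summed signal of 6 smooth muscle and fibroblast miRNAs was 28524 to 35789 for controls, 32261 to 34623 for antibiotic and 39241 to 47190 for cecal transfer. In the same order the sum had means of 31574, 33871 and 43197, and miR-145 alone had 19980, 22560 and 30020. The sum therefore largely follows miR-145. Of the 5 tested members of this list 3 rose and 1 fell in cecal transfer against control (18.1% and 11.9% of all tested probes). The rises were led by miR-145 (log2 0.59, limma adjusted p = 0.000437), and with median centring 1 of the 3, that of miR-145, was left. miR-214 was at or under a signal of 32 in all 12 libraries. Over 12 libraries the log2 sum had r = −0.85 with miR-192 and −0.86 with miR-194, and −0.71 and −0.51 on deviations from the group means. A negative relation was not particular to this list. For miR-192 and miR-194 in turn, the erythroid sum had −0.84 and −0.88 (−0.65 and −0.69 on deviations). Leukocyte (−0.65 and −0.70), neural (−0.61 and −0.68) and liver (−0.64 and −0.70) values were also negative. Striated muscle sums had −0.40 and −0.28 and endothelial sums −0.19 and −0.11. The pancreatic sum had 0.07 and 0.03, and that of the other 10 epithelial miRNAs 0.90 and 0.83. As the total signal was nearly fixed in every library, the negative values are partly built in and are only a description.

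The 6 leukocyte miRNAs summed to 2672 to 3959 for controls, 3204 to 3371 for antibiotic and 3802 to 4339 for cecal transfer, and 3 of 6 rose against control, beside 18.1% of all tested probes, among them miR-181a (log2 0.39), though with quantile normalisation none of the 3 passed (adjusted p = 0.0701 to 0.243). The 3 erythroid miRNAs summed to 1128 to 1381, 1208 to 1492 and 1466 to 1981, and 2 of 3 rose (against the same 18.1%), while miR-451, the most abundant, had 0.28 (adjusted p = 0.11). The endothelial pair summed to 5653 to 6640, 5150 to 6435 and 5626 to 5907, with miR-126-3p at −0.05 (adjusted p = 0.697). The other arm, miR-126-5p, fell against control (−0.41, adjusted p = 0.00556) and against antibiotic (−0.37, 0.0109). The 5 striated muscle miRNAs summed to 1314 to 2005, 859.6 to 1437 and 1297 to 1890, with miR-1 at −0.17 against control (adjusted p = 0.616). Against antibiotic miR-1 was higher in cecal transfer (0.68, adjusted p = 0.022, but 0.0602 with median centring). In antibiotic against control miR-1 had −0.85 (adjusted p = 0.0781, but 0.0458 with quantile normalisation). Of the 3 tested striated muscle miRNAs 1 rose against control (beside the same 18.1%), miR-499 (1.31, SE 0.38, adjusted p = 0.0188), which was at or under 32 in 3 of 12 libraries. The 5 neural miRNAs summed to 363.5 to 419.2, 382.6 to 436.5 and 405.2 to 472.5, none past the threshold against control. The most abundant, miR-218, had 0.26 (adjusted p = 0.068). Against control miR-128 had −0.50 (adjusted p = 0.127) but was called with quantile normalisation (−0.64, adjusted p = 0.0179). Against antibiotic miR-128 was lower (−0.89, adjusted p = 0.0101). It was at or under 32 in 8 of 12 libraries. miR-126-5p, miR-499 and miR-128 are named after their values were seen.

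The liver miRNA miR-122 was weak, at 40.39 to 51.54 in control and 55.52 to 69.48 in cecal transfer libraries, and rose (log2 0.41, adjusted p = 0.0289, but 0.0978 with median centring and 0.256 with quantile normalisation). Liver also expresses miR-192 and miR-194, and miR-122 was at most 69.48 in any library. The pancreatic miR-216b had 0.09 (adjusted p = 0.737). The part of these cell types in the fall of miR-192 and miR-194 was not tested.

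**Figure D4:**
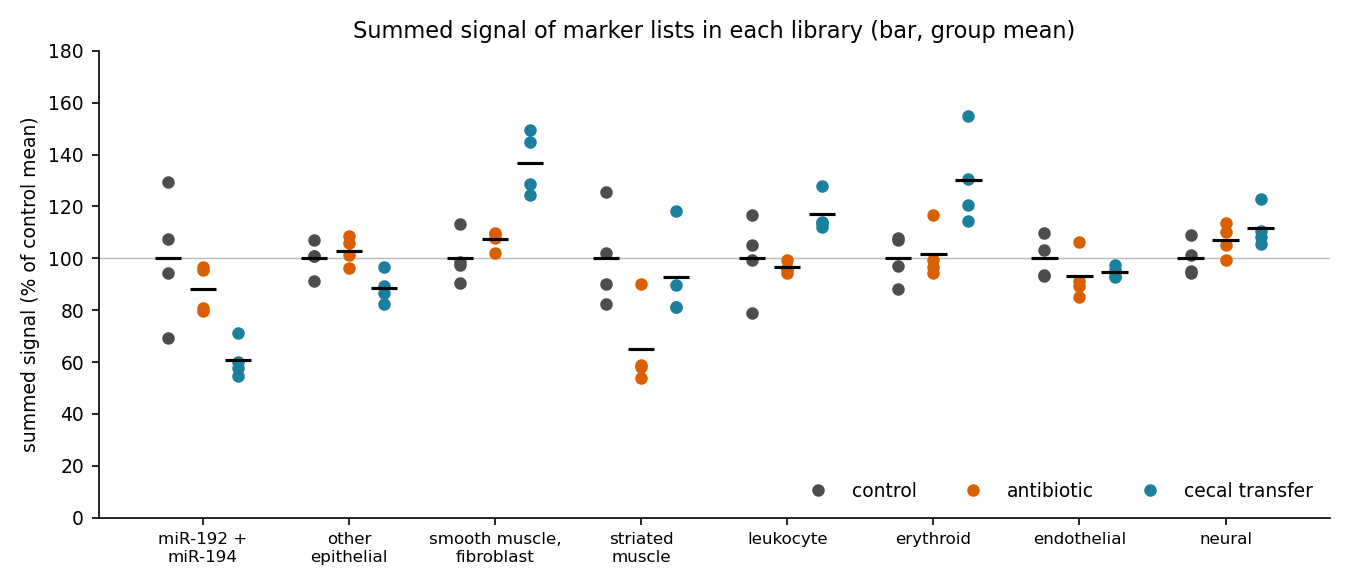
Summed signal of marker lists in each library as a percent of the control mean (y axis from 0). Points are coloured by group, with a bar at each group mean. The first column is the sum of miR-192 and miR-194 and the second the other 10 epithelial miRNAs. The liver and pancreas lists are not drawn. For cecal transfer the means of the first 2 columns lie below control, with overlap in both, and the smooth muscle and fibroblast column lies above it, at 39241 to 47190 against 28524 to 35789 units.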

How the data were processed

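Per the labels' protocols, total RNA was prepared for the NanoString nCounter miRNA assay, mouse panel version 1.5. The deposited table holds signal for 599 probes, 566 of them mouse miRNAs, scaled by the authors. Software and background treatment: not given in the sources used here. Within 0.01 of a count, 100% of deposited signal values were whole counts times 1 factor per library.

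Signal was taken as log2(value + 1), which understates the change of weak probes. Mouse probes above 32 in at least 4 libraries were tested, 226 in all, and both members passed in every library. One limma 3.58.1 model (R 4.3.3) over 12 libraries used moderated variances with a mean trend. Benjamini-Hochberg adjustment ran over all 226 probes, with a threshold of 0.05. Exact two-sided permutation tests compared the ratios. Groups came from the sample descriptions.

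The members, marker lists and settings were chosen with earlier results of these data known. Named miRNAs are the members, probes sharing a seed, the epithelial list, the most abundant member of each other list, and for each member the 5 most and 3 least correlated probes, and the 5 most correlated on deviations from group means. Alternatives were median centring, quantile normalisation, TMM, a pseudocount of 10, other filters, no trend, array weights, only the groups compared in the fit, log2 depth as a covariate, edgeR 4.0.16, DESeq2 1.42.0 and leaving out each library. The fit was tested on simulated data, in 20 runs with 60 of 226 probes changed in cecal transfer against control. It called 24.5% of 1.25-fold, 64.8% of 1.5-fold and 93.8% of 2-fold changes. Of its calls, 3.58% were probes left unchanged.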

Additional observations from a re-analysis of the deposited data

How the results depend on the processing

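The fall of miR-194 in cecal transfer against control passed in all 24 alternatives, at −1.18 to −0.58 in other settings and −1.09 to −0.72 with a library left out. Against antibiotic it lost its call only with log2 depth in the model (−1.27, adjusted p = 0.288) and was −0.78 to −0.62 with a library left out. miR-192 in cecal transfer against control lost its call with quantile normalisation (−0.20), without the filter, without the mean trend and with only the groups compared (−0.29 each), and with log2 depth (−0.30). With a library left out it was −0.39 to −0.23. miR-192 in cecal transfer against antibiotic gained a call with median centring (−0.35), TMM factors (−0.30), no filter and a filter of 100 (−0.26 each), array weights (−0.28), only the groups compared (−0.26), edgeR (−0.29) and DESeq2 (−0.30). It was −0.31 to −0.22 with a library left out.

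In antibiotic against control, where neither member was called, miR-194 turned to 0.09 with quantile normalisation and 0.10 with log2 depth. miR-192 turned to 0.03 without control replicate 1 and without control replicate 3, in a range of −0.12 to 0.03. miR-194 there was −0.40 to −0.04 with a library left out.

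Counts past the threshold in antibiotic against control went from 0 to 2 with quantile normalisation, 1 without the mean trend and 3 with DESeq2, and lay between 0 and 8 with a library left out. In cecal transfer against control they went from 68 to 23 with log2 depth. Against antibiotic they went from 74 to 0 with log2 depth and to 161 of 566 without the filter. The ratios kept the sign of their differences with a pseudocount of 10. With a library left out, miR-194 relative to miR-192 was lower in cecal transfer, at −0.70 to −0.49 against control and −0.47 to −0.37 against antibiotic. No p-value was computed for the ratios with a library left out. The causes of these changes were not tested. No paired analysis was possible because the labels give no litters and no replicate numbers, and those used here only name libraries.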
